A study of Homo sapiens with 17 samples.

Results

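HOX genes of the A, B, C and D clusters were measured by mRNA-seq in SW480 cells, a human colon cancer line with mutant p53 (mutp53). They were chosen by symbol alone, as every listed gene named HOX with a cluster letter and a number, and 39 of the 26457 listed genes met this rule. They comprised 11 HOXA genes on chromosome 7, 10 HOXB genes on chromosome 17, 9 HOXC genes on chromosome 12 and 9 HOXD genes on chromosome 2. Antisense and other non-coding RNAs of the clusters were not members and are described as a separate list.

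HOX proteins are homeodomain transcription factors that bind DNA together with cofactors of the TALE family, such as the MEIS proteins, and give cells their position along the body axis. The genes of a cluster lie in the order in which they act, from the anterior, low-numbered genes at the 3′ end to the posterior, high-numbered genes at the 5′ end, and genes with the same number in different clusters are paralogs. Polycomb proteins keep clusters silent and trithorax proteins keep them active, and adult colon epithelium and colon cancers keep a part of the HOX program on.

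Control cells carried a doxycycline-inducible short hairpin RNA against LacZ, and mutp53-depleted cells carried one against p53. Both were stable SW480 lines under puromycin, both received doxycycline at 1 µg/ml, and both were harvested before (0 h) and 16 h after addition of 12.5 ng/ml TNF-α, a cytokine that activates NF-κB. Each of the 4 groups had 2 biological replicates, A and B, and each hairpin stood in its own line, so the hairpin and the line cannot be told apart. Whether each line was 1 clone, and whether replicates were separate inductions, is not given in the sources used here, and p-values measure the spread between these libraries. The libraries held from 6108488 to 13809578 reads on genes, and 1 read equals between 0.670 and 1.515 normalized reads, the unit of the deposited table. The epithelial keratin genes KRT8 and KRT18 were abundant in all groups, whereas CDX1 and CDH17 of the same 13-gene colon epithelial list had 3 reads or fewer in every library. Of the 8 tested genes of that list, 2 fell after depletion at both times and none rose, where 9.55% and 10.2% of all genes tested fell. They were VIL1, which encodes villin (log2 fold change −5.49 and −5.60), and EPCAM, an epithelial adhesion gene (−1.29 and −1.06), whereas KRT19 had 0.26 at both times. Summed over each list, markers of fibroblasts (7 genes) lay between 28.5 and 177 normalized reads, of leukocytes (6 genes) between 45.5 and 85.5 and of endothelium (4 genes) between 5.69 and 28.8. The fibroblast sum was highest in mutp53-depleted cells at 0 h, where PDGFRB and COL1A1 rose, while COL3A1, DCN, PTPRC and KDR had no read in any library. The leukocyte genes CD68 (log2 fold change 1.09) and LYZ (1.63) also rose after depletion at 0 h, whereas CD14 had −0.89 (limma adjusted p = 0.079). The endothelial gene VWF rose by 1.84 at 0 h and 2.62 at 16 h. Of all genes tested, 5.89% rose at 0 h and 5.03% at 16 h. The part of these shifts in the HOX values was not tested, and in bulk RNA fewer cells with a transcript and less of it per cell cannot be told apart.

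Promoter sequences were matched from RefSeq (GRCh38.p14) for 20 of the 39 genes, with 27 start sites, and the 250 bases before each start were searched on both strands. All tested HOXB genes and HOXC6 to HOXC13 were unmatched, so the windows are mostly those of HOXA and HOXD genes. The coordinates of the expression table are those of hg19, so the promoter coordinates below belong to the other build. The NF-κB consensus, of interest because the cells were treated with TNF-α, was found in 3 of the 27 windows (11.1%), compared with 9.96% of all 35116 RefSeq windows. TATAA, the core of a TATA box, was found in 9 of them (33.3%), compared with 18.9% of all windows. These include multiple start sites of HOXA3 and of HOXA10, so the windows are not separate genes. A match is only a description of the letters. The median window of a HOX gene held 19 CG dinucleotides and that of all genes held 11. The windows shown belong to HOXA2 and HOXC4, with the NF-κB consensus (the HOXC5 entry is the same window as that of HOXC4), and to HOXA9 and HOXD11, which fell and rose after depletion and carry TATAA. Each is written 5′ to 3′ in the direction of the gene, with the match in capitals.
HOXA2 (chr7:27102684-27102933, minus strand): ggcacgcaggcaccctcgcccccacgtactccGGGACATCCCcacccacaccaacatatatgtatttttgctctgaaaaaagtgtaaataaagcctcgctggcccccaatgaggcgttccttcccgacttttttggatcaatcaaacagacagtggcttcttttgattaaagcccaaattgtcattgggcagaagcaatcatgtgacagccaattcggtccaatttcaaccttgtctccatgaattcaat
HOXC4 (chr12:54016638-54016887, plus strand): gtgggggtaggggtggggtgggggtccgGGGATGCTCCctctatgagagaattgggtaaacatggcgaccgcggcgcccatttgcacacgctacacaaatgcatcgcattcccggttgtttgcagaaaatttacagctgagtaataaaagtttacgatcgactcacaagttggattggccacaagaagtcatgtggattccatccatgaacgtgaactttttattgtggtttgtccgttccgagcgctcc
HOXA9 (chr7:27165538-27165787, minus strand): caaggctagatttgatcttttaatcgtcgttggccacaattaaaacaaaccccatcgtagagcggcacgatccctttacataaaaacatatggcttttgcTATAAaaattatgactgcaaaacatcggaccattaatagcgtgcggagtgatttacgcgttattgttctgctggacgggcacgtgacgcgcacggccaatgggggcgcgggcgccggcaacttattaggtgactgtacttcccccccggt
HOXD11 (chr2:176107030-176107279, plus strand): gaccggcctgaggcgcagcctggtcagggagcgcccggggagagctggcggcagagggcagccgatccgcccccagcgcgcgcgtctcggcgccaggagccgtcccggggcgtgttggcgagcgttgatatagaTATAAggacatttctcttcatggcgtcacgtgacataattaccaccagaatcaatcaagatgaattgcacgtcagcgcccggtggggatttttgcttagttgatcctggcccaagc
The consensus starts 218 bases before the HOXA2 start and 222 bases before the HOXC4 start, and TATAA starts 150 bases before the HOXA9 start and 116 before that of HOXD11. In the windows of HOXD13 and of a HOXA3 start, not shown, TATAA lies nearer, 27 bases before the start. Whether any TATAA bears on the changes was not tested. HOXA2, HOXC4, HOXA9 and HOXD11 held 8, 14, 20 and 23 CG dinucleotides.

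SW480 cells transcribed most of the HOX genes. Of the 39, 34 passed the filter for testing (a mean of at least 2.5 normalized reads over the 8 libraries), 4 were silent, which here means 3 reads or fewer in every library, and 1 was low. The silent genes were HOXB1 with 1 read in mutp53-depleted cells at 0 h, HOXD3 with 1 read in control cells at 16 h, HOXC12 with 1 and 3 reads in mutp53-depleted cells at 0 h, and HOXD12 with at most 3 reads in a library. None of the 39 had 0 reads throughout. HOXB1 and HOXD3 act in the hindbrain and the anterior trunk, and HOXC12 and HOXD12 in posterior structures. HOXD4 was the low gene, with 0 and 0 reads in control cells at 0 h, 1 and 2 at 16 h, against 10 and 4 in depleted cells at 0 h and 3 and 1 at 16 h. At 0 h the depleted mean of HOXD4 (6.09 normalized reads) was 1.81-fold the limit that 0 reads allow in control cells (3 reads in each library, a mean of 3.36). The depleted reads were taken as exact, so this is not a lower bound. HOXD1, the weakest gene tested, had 2.9 and 7.57 normalized reads in the control libraries at 0 h and 3.87 and 2.85 at 16 h, against 4.69 and 4.11 in the depleted libraries at 0 h and 3.35 and 4.94 at 16 h, and its groups overlapped in every comparison of depletion.

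Levels between genes are compared as normalized reads per kb of exon. HOXB8 was highest in control cells at 0 h with 667 normalized reads per kb, next to HOXA9 with 635 and HOXB6 with 614. HOXA7 and HOXB7 followed with 393 and 317 normalized reads per kb, whereas the highest HOXC gene, HOXC10, had 157 and the highest HOXD gene, HOXD9, had 46.7. In normalized reads, HOXB8 had 1215 and 1213 in the control libraries at 0 h and HOXA9 had 1324 and 1283, which do not overlap, but the order of the pair turns on length. The 5 most abundant HOX mRNAs per kb in these libraries thus came from central HOXA and HOXB genes, and of the tested genes HOXA2, HOXC13, HOXD1, HOXD8, HOXD10 and HOXD13 had at most 13.0 normalized reads per kb.

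**Figure D1:**
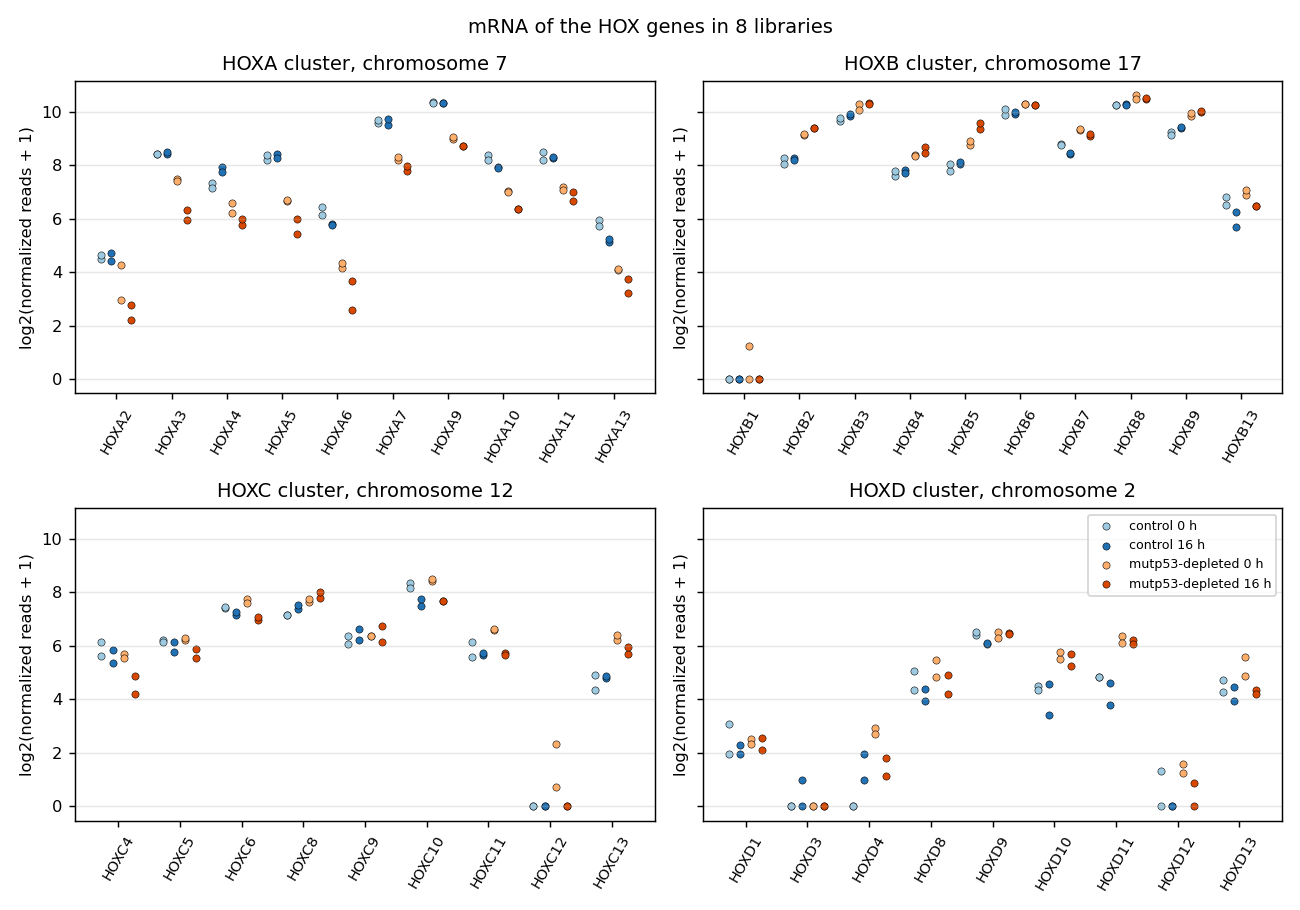
Level of HOX genes as log2(normalized reads + 1), in 4 panels by cluster, with 1 point for each of the 8 libraries and a colour for each group. At each time, HOXA points of mutp53-depleted cells lie under those of control cells for each HOXA gene shown, HOXB points of the 9 tested genes lie over them, and the 4 silent genes have 3 reads or fewer in each library.

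The summed mRNA of the clusters was compared between the lines. HOXA genes summed to 4088 and 3960 normalized reads in the control libraries at 0 h and to 1667 and 1692 in mutp53-depleted cells, which is 2.40-fold lower. At 16 h the HOXA sums were 3825 and 3917 in control and 1094 and 1132 in depleted libraries, which is 3.48-fold lower. HOXB genes summed to 4933 ± 145 normalized reads in control and 6981 ± 130 in depleted libraries at 0 h (mean ± SD, n = 2), and to 5023 ± 32.8 and 7350 ± 79.2 at 16 h. The replicates did not overlap between the lines for either cluster. HOXC and HOXD genes took smaller parts, with 908 ± 43.3 and 190.0 ± 7.36 normalized reads in the control libraries at 0 h (n = 2), and 1147 ± 24.2 after depletion for HOXC, while HOXD had 304 and 284 in the 2 depleted libraries. At 16 h the HOXC sums overlapped, with 788 and 798 in control and 783 and 906 in depleted libraries. The HOXD sums did not, with 133 and 151 in control and 267 and 231 in depleted libraries. As a share of all HOX reads, HOXA went from 40.0% to 16.6% at 0 h and from 39.4% to 11.7% at 16 h, and HOXB from 49.1% to 69.1% and from 51.1% to 76.9%. Shares of a whole move against each other by construction.

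**Figure D2:**
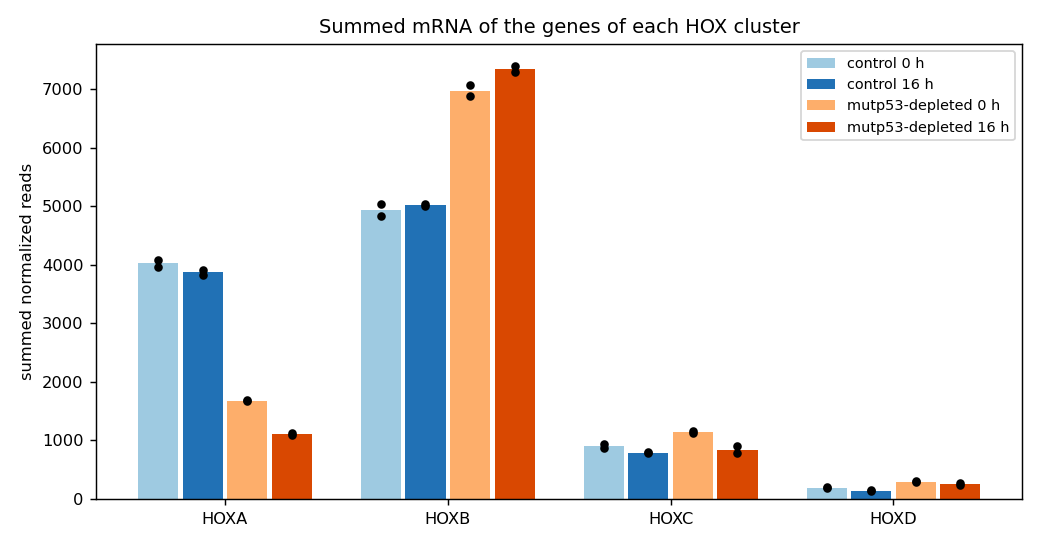
Summed normalized reads of the genes of each HOX cluster, with bars for the mean of each group and points for the 2 libraries. HOXA was lower and HOXB higher in mutp53-depleted cells, and both replicates lay on the same side at 0 h and at 16 h.

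The first comparison asked which HOX genes differed between mutp53-depleted and control cells. A gene was called changed at a limma adjusted p under 0.05, over the 14800 genes tested, and a fold change of at least 2 on the scale of log2(normalized reads + 1), which understates the change of weak genes. At 0 h, 10 of the 34 HOX genes were called, against 15.4% of all genes tested: 7 fell, all in the HOXA cluster (9.55% of all genes fell), and 3 rose (5.89% of all genes rose). At 16 h, 16 of the 34 were called, against 15.2% of all genes: 12 fell, 11 in the HOXA cluster and HOXC4 (10.2% of all genes fell), and 4 rose, which were HOXB2, HOXB5, HOXD10 and HOXD11 (5.03% of all genes rose).

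HOXA genes fell along the whole cluster on chromosome 7. Over the 11 genes, the log2 fold change had a median of −1.26 at 0 h and −1.92 at 16 h, where the median over all genes tested was 0.03 and −0.01. HOXA9, a central gene with a role in blood stem cells and leukemia, had 1324 and 1283 normalized reads in the control libraries at 0 h and 1296 and 1289 at 16 h, against 499 and 531 in the depleted libraries at 0 h and 420.0 and 422 at 16 h. Every depleted library lay under every control library. With its standard error (SE), the log2 fold change of HOXA9 was −1.34 (SE 0.08, limma adjusted p = 1.1e-10) at 0 h and −1.62 (SE 0.08, limma adjusted p = 1e-11) at 16 h.

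HOXA5, which acts in lung and gut development, had 288 and 330.3 normalized reads in the control libraries at 0 h and 344 and 307 at 16 h, against 99.2 and 104 in the depleted libraries at 0 h and 41.9 and 61.7 at 16 h. Its groups did not overlap, and the lowest value of control cells was more than that of any depleted library. HOXA5 fell by 1.59 on the log2 scale at 0 h (SE 0.17, limma adjusted p = 3e-07) and had a log2 fold change of −2.65 (SE 0.17, limma adjusted p = 4.4e-10) at 16 h. HOXA6, its 5′ neighbour, was weaker and showed the largest fold change of the cluster at 0 h, with 69.7 and 84.8 normalized reads in the control libraries at 0 h and 54.1 and 54.1 at 16 h, against 16.8 and 19.2 in the depleted libraries at 0 h and 11.7 and 4.94 at 16 h. HOXA6 changed by −2.04 (SE 0.34, limma adjusted p = 6.3e-05) at 0 h and by −2.66 (SE 0.34, limma adjusted p = 3.2e-06) at 16 h.

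HOXA7, next to HOXA9 the most abundant gene of the cluster per kb, had 761 and 818 normalized reads in the control libraries at 0 h and 725 and 837 at 16 h, against 289 and 315 in the depleted libraries at 0 h and 219.7 and 249 at 16 h. All 4 depleted libraries were low. Its log2 fold change was −1.38 (SE 0.10, limma adjusted p = 2.6e-09) at 0 h and −1.73 (SE 0.10, limma adjusted p = 1.5e-10) at 16 h. The posterior genes HOXA10, HOXA11 and HOXA13, which pattern the uterus, the limb and the genitourinary tract, fell at both times. HOXA10 changed by −1.26 (SE 0.13, limma adjusted p = 2.8e-07) at 0 h and by −1.55 at 16 h, and HOXA11 by −1.21 (SE 0.14, limma adjusted p = 1.2e-06) and −1.47. HOXA13, the gene at the 5′ end, had 61.7 and 51.5 normalized reads in the control libraries at 0 h and 33.8 and 37 at 16 h, against 16.1 and 16.4 in the depleted libraries at 0 h and 8.38 and 12.3 at 16 h. Its log2 fold change was −1.73 (SE 0.31, limma adjusted p = 0.00015) at 0 h and −1.70 (SE 0.31, limma adjusted p = 0.00018) at 16 h, so it was the HOXA gene with the smallest shift between the times.

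The anterior genes HOXA2, HOXA3 and HOXA4 were under 2-fold at 0 h and fell at 16 h. Their log2 fold changes at 0 h were −0.97, −0.96 and −0.86, with limma adjusted p = 0.079, 1.1e-05 and 0.0004. At the adjusted p alone, 10 of the 11 HOXA genes were lower at 0 h, against 25.2% of all genes. At 16 h the log2 fold changes were −2.07 (SE 0.45, limma adjusted p = 0.00082) for HOXA2, −2.32 (SE 0.14, limma adjusted p = 1.7e-10) for HOXA3 and −1.98 (SE 0.17, limma adjusted p = 2.7e-08) for HOXA4. HOXA9 and HOXA10 lie on the same strand as the HOXA10-HOXA9 read-through gene, so counts of the 3 are uncertain.

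The neighbourhood of the cluster was lower as well. The 50 nearest tested genes outside the HOXA cluster (25 on each side) had a median of −0.76 at 0 h and −0.73 at 16 h, and the 725 other tested genes of chromosome 7 a median of −0.62 at both times. Of these 50 genes, 14 were called lower and 1 higher at each time. SKAP2, a signalling adaptor gene on the anterior side, had −0.83 at 0 h and −1.61 at 16 h. HIBADH, a gene of valine breakdown on the HOXA13 side, had −1.76 and −1.95, and TAX1BP1, the next gene, −0.75 and −1.07. LOC441204, a weak gene next to SKAP2, had −1.68 (limma adjusted p = 0.053) and −1.75 (limma adjusted p = 0.046). With the median difference of 50 neighbouring genes removed from the depleted libraries, the HOXA median was −0.50 at 0 h and −1.19 at 16 h, and 1 HOXA gene (HOXA6) was called at 0 h and 7 at 16 h. Depletion of p53 and a difference in chromosome 7 between the lines cannot be told apart with 1 line for each hairpin.

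**Figure D3:**
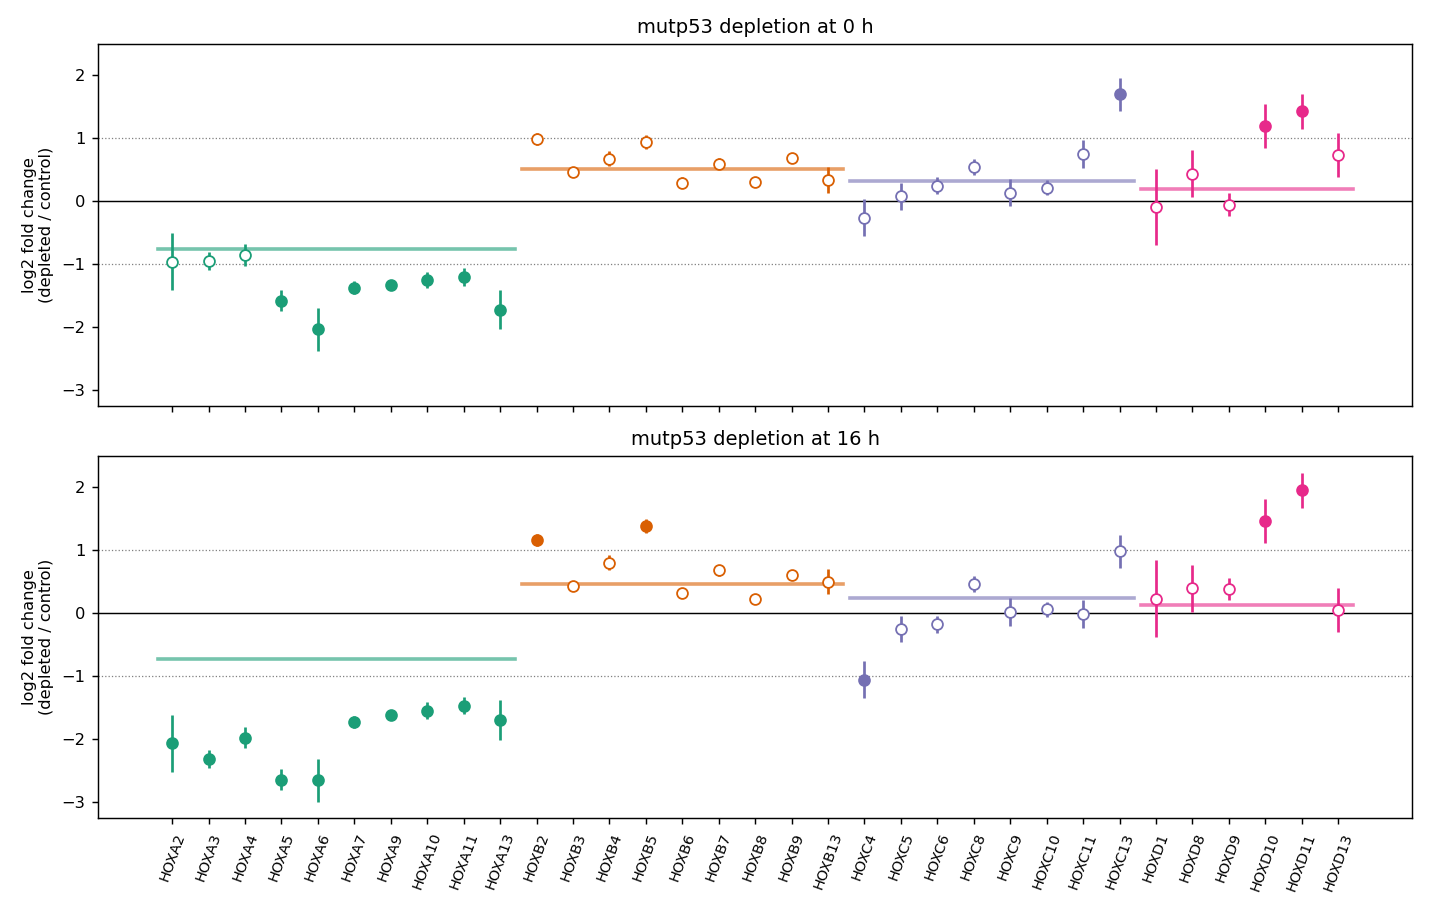
Log2 fold change (mutp53-depleted over control) of tested HOX genes at 0 h (top) and at 16 h (bottom), with bars for 1 standard error (SE). Filled points were called, dotted lines mark 2-fold, and each thick line is the median of the 50 tested genes around the cluster of that colour, at −0.76 for HOXA at 0 h and at −0.73 at 16 h.

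HOXB genes (chr17:46606807-46806111, hg19, 199 kb) were higher after depletion by modest amounts. All 9 tested genes had positive log2 fold changes at both times, with medians of 0.59 at 0 h and 0.61 at 16 h. At 0 h no HOXB gene reached 2-fold, but 8 of 9 passed the adjusted p alone and were higher, against 27.3% of all genes tested, and at 16 h 9 of 9 did, against 24.9%. HOXB2, a hindbrain gene, had 309.9 and 264 normalized reads in the control libraries at 0 h and 305 and 294 at 16 h, against 560.2 and 573 in the depleted libraries at 0 h and 663 and 678 at 16 h. Every depleted library was over every control library. HOXB2 had 0.98 (SE 0.10, limma adjusted p = 1.2e-07) at 0 h, just under 2-fold, and rose by 1.16 (SE 0.10, limma adjusted p = 1.3e-08) at 16 h.

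HOXB5, which acts in the enteric nervous system and the lung, had 218 and 261 normalized reads in the control libraries at 0 h and 266 and 279 at 16 h, against 436 and 479.9 in the depleted libraries at 0 h and 657 and 763 at 16 h. The depleted libraries were high at both times and highest at 16 h. Its log2 fold change was 0.94 (SE 0.11, limma adjusted p = 1.1e-06) at 0 h and 1.38 (SE 0.11, limma adjusted p = 8.1e-09) at 16 h. HOXB8 and HOXB6, the most abundant genes of the cluster, had the smallest values among the tested HOXB genes, and HOXB3 was also under 0.5, with 0.30 and 0.22 for HOXB8, 0.29 and 0.32 for HOXB6 and 0.45 and 0.43 for HOXB3 (log2 fold changes at the earlier and the later time). HOXB4 had 0.67 and 0.80, HOXB7 0.59 and 0.68, and HOXB9 0.68 and 0.61. HOXB13, a gene of the hindgut and prostate that lies apart from the rest of the cluster, had 0.33 at 0 h (limma adjusted p = 0.18) and 0.50 at 16 h (limma adjusted p = 0.048).

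The 50 genes around the HOXB cluster had medians of 0.50 and 0.46, and the other 922 tested genes of chromosome 17 of 0.26 and 0.25. CALCOCO2, an autophagy receptor gene on the HOXB13 side, had 0.88 and 0.49, and SKAP1 on the other side 0.08 and 0.64. The weak flanking genes TTLL6 and LOC101927166, with at most 12.7 normalized reads in a library, rose by 2.27 and 2.39 at 0 h and by 2.30 and 2.69 at 16 h. With the neighbouring median removed, the HOXB median was 0.09 at 0 h and 0.15 at 16 h, and no HOXB gene reached the call of 2-fold. HOXB2 and HOXB5 were then still higher at 16 h, with log2 fold changes of 0.70 (limma adjusted p = 2.3e-05) and 0.91 (limma adjusted p = 4.8e-06).

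HOXC genes (chr12:54332576-54449814, hg19, 117 kb) lay on a chromosome whose other 796 tested genes had medians of 0.57 at 0 h and 0.54 at 16 h, yet the HOXC median was 0.23 at 0 h and 0.01 at 16 h. The 50 genes around the cluster had medians of 0.32 and 0.24. HOXC13, a posterior gene known for its role in hair and nails, had 29 and 19.7 normalized reads in the control libraries at 0 h and 27.1 and 28.4 at 16 h, against 73.7 and 85 in the depleted libraries at 0 h and 50.3 and 61.7 at 16 h. Depleted libraries were high at both times and did not overlap with control libraries. HOXC13 rose by 1.69 (SE 0.26, limma adjusted p = 2.9e-05) at 0 h and had 0.98 (SE 0.26, limma adjusted p = 0.0043) at 16 h, just under 2-fold. HOXC4, at the 3′ end, had 47.9 and 69.7 normalized reads in the control libraries at 0 h and 57 and 39.8 at 16 h, against 50.3 and 45.2 in the depleted libraries at 0 h and 17.6 and 28.4 at 16 h. Its groups overlapped at 0 h, where its log2 fold change was −0.27 (SE 0.29, limma adjusted p = 0.46), and did not at 16 h, where it fell by 1.06 (SE 0.29, limma adjusted p = 0.0053). Without control replicate A at 16 h the HOXC4 value was −0.80 (limma adjusted p = 0.08), and without mutp53-depleted replicate A at 16 h it was −0.73 (limma adjusted p = 0.074).

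The other HOXC genes were not called. HOXC8 had 0.54 at 0 h and 0.46 at 16 h, and HOXC11 0.74 and −0.01, both past the adjusted p at 0 h. HOXC5, HOXC6, HOXC9 and HOXC10 lay between 0.07 and 0.24 at 0 h and between −0.25 and 0.06 at 16 h. HOXC4, HOXC5 and HOXC6 share a start and overlap on the same strand in the annotation, so reads may have been split or counted for more than 1 of them. The flanking genes ATP5G2, CALCOCO1, SMUG1 and CBX5 had log2 fold changes of 0.70, 0.52, 0.64 and 0.32 at 0 h, all positive.

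HOXD genes (chr2:176957532-177055635, hg19, 98.1 kb) were weakly expressed, and 2 of the 6 tested genes rose at both times. HOXD11, which patterns the forearm, had 27.6 and 27.3 normalized reads in the control libraries at 0 h and 23.2 and 12.8 at 16 h, against 82.4 and 68.6 in the depleted libraries at 0 h and 72.9 and 66.6 at 16 h. No control library reached the lowest depleted library. HOXD11 rose by 1.42 (SE 0.28, limma adjusted p = 0.00035) at 0 h and by 1.95 (SE 0.28, limma adjusted p = 1.3e-05) at 16 h. Its neighbour HOXD10 had 21.8 and 19.7 normalized reads in the control libraries at 0 h and 9.67 and 22.8 at 16 h, against 44.2 and 53.5 in the depleted libraries at 0 h and 50.3 and 37 at 16 h, again with no overlap. HOXD10 rose by 1.19 (SE 0.35, limma adjusted p = 0.0081) at 0 h and by 1.47 (SE 0.35, limma adjusted p = 0.0018) at 16 h. Without mutp53-depleted replicate B at 0 h the first was 1.06 (limma adjusted p = 0.073), and without control replicate A at 16 h the second was 0.89 (limma adjusted p = 0.045).

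HOXD9, the most abundant gene of the cluster, had 84.9 and 90.9 normalized reads in the control libraries at 0 h and 65.7 and 68.3 at 16 h, against 91.8 and 76.8 in the depleted libraries at 0 h and 88 and 86.4 at 16 h, and it was not called (log2 fold change −0.06 at 0 h and 0.38 at 16 h). HOXD13 had 0.73 and 0.05, HOXD8 0.43 and 0.39, and HOXD1 −0.10 and 0.23. The HOXD median was 0.58 at 0 h and 0.38 at 16 h, beside 0.18 and 0.13 for the 50 genes around the cluster and 0.06 and 0.00 for the other 968 tested genes of chromosome 2. On the 5′ side of the cluster, the flanking genes ATP5G3 and KIAA1715 had 0.05 and −0.35 at 0 h and 0.03 and −0.27 at 16 h. On the HOXD1 side MTX2 had −0.03 and −0.12, and the next gene, the weak non-coding LINC01116, had 1.07 at 0 h (limma adjusted p = 0.061) and rose by 1.23 at 16 h (limma adjusted p = 0.033).

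Paralogs of different clusters had different values. In the group of number 9, HOXA9 had a log2 fold change of −1.62 at 16 h, HOXB9 of 0.61, HOXC9 of 0.02 and HOXD9 of 0.38. In the group of number 10, the values at 16 h were −1.55 for HOXA10, 0.06 for HOXC10 and 1.47 for HOXD10, and in the group of number 11 they were −1.47 for HOXA11, −0.01 for HOXC11 and 1.95 for HOXD11. In each of these groups the HOXA gene lay under its paralogs, a description with no test.

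The second comparison asked how 16 h of TNF-α changed HOX mRNA. In control cells 0 of the 34 genes were called by limma, against 7.24% of all genes tested, and edgeR and DESeq2 on the recovered reads also called 0. At an unadjusted p under 0.05, 9 of the 34 differed, against 36.6% of all genes. At the adjusted p alone 4 of 34 were lower, among them HOXB7, HOXB13 and HOXC10 (against 15.2% of all genes), and HOXA4 was higher (1 of 34, against 11.1%). The log2 fold changes were −0.64 (SE 0.12, limma adjusted p = 0.00051) for HOXC10, −0.67 (SE 0.20, limma adjusted p = 0.018) for HOXB13, −0.31 for HOXB7 and 0.60 (SE 0.17, limma adjusted p = 0.015) for HOXA4. The cluster medians were −0.02 for HOXA, 0.07 for HOXB, −0.19 for HOXC and −0.43 for HOXD, beside −0.05 over all genes. Without control replicate A at 16 h, 1 HOX gene was called, HOXD11.

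In mutp53-depleted cells 4 of the 34 genes were called after TNF-α, against 6.36% of all genes, and all 4 fell (4.5% of all genes fell). HOXA3, which patterns the pharyngeal arches and the thymus, had 338 and 341 normalized reads in the control libraries at 0 h and 342 and 361 at 16 h, against 178 and 170.0 in the depleted libraries at 0 h and 79.7 and 60.5 at 16 h. Control libraries stayed between 338 and 361 normalized reads, whereas the highest depleted library at 16 h had 79.7. HOXA3 changed by −1.31 (SE 0.14, limma adjusted p = 9.8e-07).

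HOXA6 fell by 1.12 (SE 0.34, limma adjusted p = 0.02) and HOXC4 by 1.06 (SE 0.29, limma adjusted p = 0.011) with TNF-α in mutp53-depleted cells, from the library values given above. Each rested on few reads. The call of HOXA6 was lost without depleted replicate A (−1.22) or B (−1.03) at 0 h or B at 16 h (−0.57), in edgeR (−0.91) and DESeq2 (−0.95), without a filter (limma adjusted p = 0.054) and with a pseudocount of 5 (−0.83). That of HOXC4 was lost without depleted replicate A at 0 h (−0.98) or at 16 h (−0.73), in DESeq2 (−1.03, DESeq2 adjusted p = 0.056), with median ratio rescaling (−0.99), with a pseudocount of 5 (−0.94) and with the median of the neighbouring genes removed (−0.97). At the adjusted p alone 12 of the 34 genes were lower, against 16.9% of all genes, 8 of them in the HOXA and 4 in the HOXC cluster. HOXB5 was the 1 gene that was higher, against 9.8% of all genes (log2 fold change 0.63 (SE 0.11, limma adjusted p = 0.00028)). The cluster medians were −0.65 for HOXA, 0.12 for HOXB, −0.59 for HOXC and −0.14 for HOXD, beside −0.06 over all genes.

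The third comparison tested whether the TNF-α response differed between the lines (the interaction, called at the adjusted p alone). It was called for 4 of the 34 genes, against 2.86% of all genes, and each response was lower in mutp53-depleted cells (2.21% of all genes). All 4 lay in the HOXA cluster, among them HOXA3, HOXA4 and HOXA5. HOXA4, a trunk patterning gene, had 161 and 142 normalized reads in the control libraries at 0 h and 246 and 216 at 16 h, against 72.4 and 94.6 in the depleted libraries at 0 h and 53.7 and 61.7 at 16 h. Both control libraries at 16 h lay over those at 0 h, and both depleted libraries at 16 h lay under those at 0 h. The interaction was −1.36 (SE 0.19, limma adjusted p = 0.00043) for HOXA3, −1.12 (SE 0.25, limma adjusted p = 0.016) for HOXA4 and −1.06 (SE 0.24, limma adjusted p = 0.018) for HOXA5. The call of HOXA3 held with each library left out in turn. HOXA4 was not called without control replicate B at 0 h (−1.03) or A at 16 h (−1.03), nor without depleted replicate B at 0 h (−0.93) or A at 16 h (−1.02). HOXA5 lost its call without control replicate A at 0 h (−0.96) or at 16 h (−0.98), and without depleted replicate A (−1.10) or B (−1.03) at 0 h or A at 16 h (−0.79). Every one of these values kept its sign.

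The interaction was −1.10 (SE 0.64) for HOXA2 and −0.62 (SE 0.48) for HOXA6. For HOXA7, HOXA9, HOXA10 and HOXA11 it was −0.35, −0.28, −0.29 and −0.26, and for HOXA13 0.03 (SE 0.44). In order along the cluster it thus went from near or under −1 at HOXA2 to HOXA5 toward 0 at HOXA13. Across the 10 HOXA genes from HOXA2 to HOXA13, the distance of the start from that of HOXA2 (0 to 97.3 kb) had a Spearman's rho of 0.95 and a Pearson's r of 0.90 with the interaction. This order was seen after the values were known, and the genes share libraries and some transcripts, so the relation is a description. SKAP2, whose start lies 238 kb from that of HOXA2 on the anterior side, had an interaction of −0.78 (SE 0.12, limma adjusted p = 0.00066), and HIBADH, 560.2 kb away on the other side, had −0.19 (limma adjusted p = 0.73). The 50 genes around the cluster had a median interaction of −0.01.

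**Figure D4:**
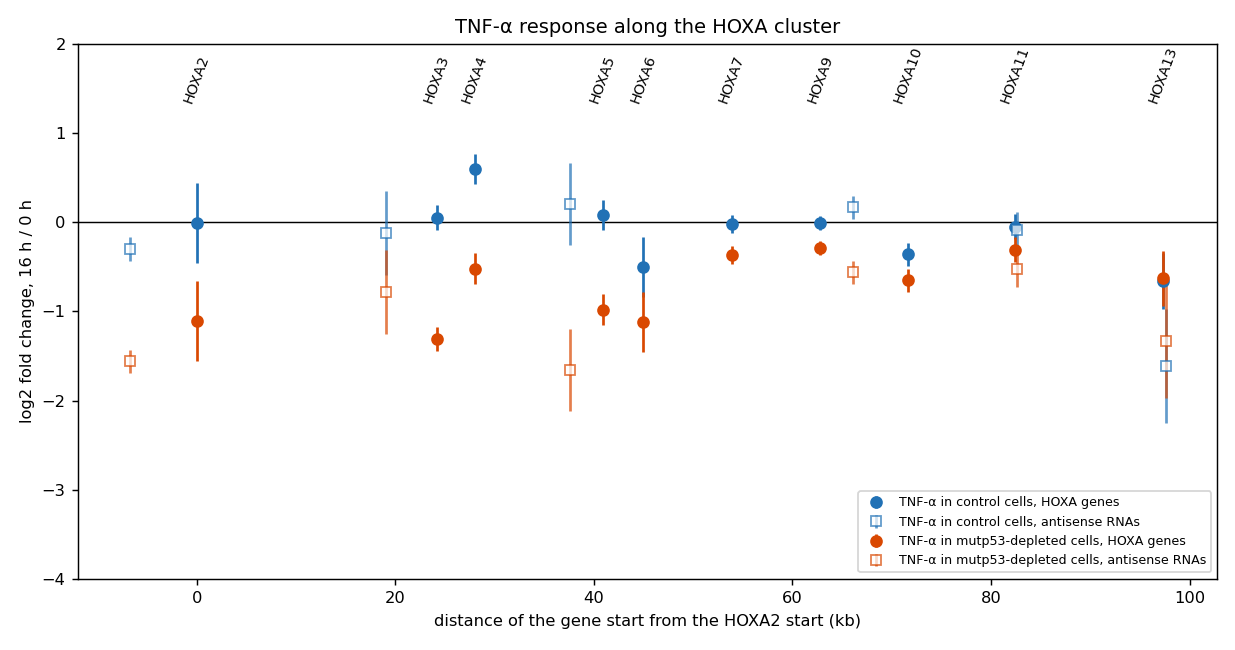
Log2 fold change after 16 h of TNF-α of HOXA genes (filled) and of the antisense RNAs of the cluster (open squares), in control (blue) and mutp53-depleted cells (orange), against the distance of the gene start from the HOXA2 start in kb, with bars for 1 standard error. The interaction, depleted less control, is −1.36 at HOXA3 and 0.03 at HOXA13.

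Outside the HOXA cluster no interaction was called by limma, edgeR or DESeq2, and 1 HOXB and 2 HOXC genes had an unadjusted limma p under 0.05. HOXC genes had 8 of 8 negative values with a median of −0.37, the lowest being −0.79 for HOXC4 (limma adjusted p = 0.44) and −0.74 for HOXC11 (limma adjusted p = 0.29). HOXB genes lay between −0.09 (HOXB8) and 0.44 (HOXB5), and HOXD genes between −0.68 (HOXD13) and 0.53 (HOXD11). In weakly expressed HOXD genes the standard errors, up to 0.86 for HOXD1, leave room for differences of 2-fold that these depths could not show.

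Non-coding RNAs of the clusters were a list of 24 genes, of which 17 were tested. At 0 h 4 fell and 3 rose after depletion, and at 16 h 5 fell and 2 rose, with list medians of −0.30 and −0.60. Of all genes tested, 9.55% fell and 5.89% rose at 0 h, and 10.2% fell and 5.03% rose at 16 h. HOTAIRM1, an antisense RNA of the anterior HOXA cluster, had 375 and 353 normalized reads in the control libraries at 0 h and 297 and 293 at 16 h, against 162 and 149 in the depleted libraries at 0 h and 54.5 and 49.4 at 16 h. At each time both depleted libraries lay under both control libraries. HOTAIRM1 fell after depletion, with −1.22 at 0 h and −2.48 at 16 h, and its interaction was −1.26 (limma adjusted p = 0.00052). HOXA10-AS fell too, with −1.70 at 0 h and −2.42 at 16 h, and its interaction was also called (−0.73, SE 0.19, limma adjusted p = 0.04). Its start lies between those of HOXA9 and HOXA10, whose interactions were −0.28 and −0.29, so it departs from the order of the HOXA genes. HOXA-AS3 fell by 2.46 at 16 h. HOXD-AS2 rose from 0.365 ± 0.516 to 10.5 ± 2.57 normalized reads at 0 h (mean ± SD, n = 2). Of the RNAs called after depletion, those of the HOXA cluster fell and those of the HOXB and HOXD clusters rose. HOTAIR, in the HOXC cluster, was lower at both times but just under 2-fold, so it was not called. Its log2 fold change was −0.96 (limma adjusted p = 0.00022) at 0 h and −1.0 (limma adjusted p = 0.00015) at 16 h.

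Other regulators and relatives of HOX genes were counted from lists. Of 8 tested TALE cofactor genes, 2 were called at 0 h and 1 at 16 h after depletion, beside 15.4% and 15.2% of all genes tested. PBX4 fell at both times (−1.07 and −1.27). MEIS1 fell with TNF-α in mutp53-depleted cells by 1.10 and had −0.54 (limma adjusted p = 0.16) in control cells. Its interaction was not called (limma adjusted p = 0.56). Of the 3 tested ParaHox and EVX genes, GSX1 fell by 1.32 at 16 h, where 10.2% of all genes tested fell. GSX1 was weak, with at most 30 reads in a library and 3.35 and 3.7 normalized reads in the depleted libraries at 16 h. CDX2, an intestinal homeobox gene that binds HOX clusters, had 981 and 965 normalized reads in the control libraries at 0 h and 462 and 467 at 16 h, against 1038 and 1082 in the depleted libraries at 0 h and 509 and 569 at 16 h. CDX2 fell with TNF-α in control cells by 1.07, and had −0.98 (limma adjusted p = 4.8e-08) in depleted cells, just under 2-fold. CDX2 did not differ 2-fold between the lines (log2 fold change 0.12 at 0 h).

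Of 22 Polycomb genes, 3 rose and 1 fell at 0 h, and 3 rose and none fell at 16 h, with medians of 0.27 and 0.24. The 4 calls of 22 at 0 h and 3 of 22 at 16 h stand beside 15.4% and 15.2% of all genes tested, shares near to theirs. AEBP2, a PRC2 accessory gene on chromosome 12, rose by 1.62 and 1.53, and BMI1, a PRC1 core gene, by 1.10 and 1.03. PHC1 rose at 16 h by 1.37, and CBX7 fell by 1.34 at 0 h and with TNF-α in control cells by 1.03. With TNF-α in depleted cells CBX7 had −0.68 (limma adjusted p = 0.0085). The 13 trithorax and activator genes had medians of 0.22 and 0.19 after depletion, and KDM6B, which removes the Polycomb mark, rose with TNF-α in control cells by 1.07. In depleted cells KDM6B had 0.80 with TNF-α (limma adjusted p = 2.9e-06). Whether these changes bear on the HOX values was not tested.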

How the data were processed

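Strand-specific poly(A) libraries (dUTP) of 4 groups with 2 biological replicates each were analysed. ChIP-seq and GRO-seq samples were not analysed here. The authors mapped reads with STAR and counted them on exons of RefSeq genes with HOMER, condensed to 1 transcript per gene. The deposited signal (normalized reads) is that read number times a factor of its library, on hg19 coordinates per the file headers, whereas the submitters' processing notes name hg38. All values (100.0%, tolerance 0.006 reads) were whole reads, which were recovered. The deposited columns of the authors' own comparisons (log2 fold changes, p-values and adjusted p-values) were not used.

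Normalized reads were fitted as log2(value + 1) with limma 3.58.1 (R 4.3.3, moderated with a trend, 4 group means over all 8 libraries). The filter was a mean of 2.5 or more, which 14800 genes passed, with Benjamini-Hochberg adjustment over all of them. Calls needed an adjusted p under 0.05 and 2-fold (for the interaction, no fold). Reads on genes were 74.5% to 79.5% of the library totals. Replicates differed by more than sampling noise (chi-square of 2.07 to 3.93 per gene). HOX genes are named by the rule that chose them, as are list genes that were called (at most 4 per list) and flanking genes. Those otherwise named (HOTAIR, marker genes and the order along HOXA) were chosen after their values were seen. Some genes that the counts, sums and medians include are not reported here by name. The members and lists were chosen with earlier results of these data known. Alternatives were median ratio rescaling, other filters and pseudocounts, a replicate block, each library left out, the neighbouring median removed, and edgeR 4.0.16 and DESeq2 1.42.0 on recovered reads. In simulated data of depletion at 0 h, over 14736 genes, 99 of 100 genes changed by 1.5 and 100 of 100 changed by 2 on the log2 scale were called, with 3 false calls. The changed genes were drawn only from those above a minimum of expected reads, with the same dispersion for all genes. The simulation thus does not cover genes as weak as HOXD1 or HOXA2. Promoters came from RefSeq GRCh38.p14. Figures used matplotlib 3.10.9.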

Additional observations from a re-analysis of the deposited data

Results flagged for a closer look

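The response to TNF-α differed between control and mutp53-depleted cells by the test of the interaction for HOXA3 (−1.36), HOXA4 (−1.12) and HOXA5 (−1.06), on the log2 scale and with limma adjusted p = 0.00043, 0.016 and 0.018. HOXA3 and HOXA5 were lower after TNF-α in both mutp53-depleted libraries than before it. HOXA4 differed in the sign of its response, with a log2 fold change of 0.60 in control and −0.52 in depleted cells.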

How the results depend on the processing

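With the median of 50 neighbours taken out of the depleted libraries, 4 HOX genes were called at 0 h and 10 at 16 h, and the medians at 0 h and 16 h were −0.50 and −1.19 for HOXA, 0.09 and 0.15 for HOXB and −0.09 and −0.23 for HOXC, whose value at 0 h reversed. TNF-α in mutp53-depleted cells called 2 genes with DESeq2 and 2 with a pseudocount of 5, which also gave a HOXA median of −1.71 at 16 h. Median ratio rescaling gave a HOXB median of 0.57 at 0 h. No gene was silent when 0 reads were required. Leaving out 1 library gave 10 to 14 calls for depletion at 0 h, 14 to 17 at 16 h, 0 to 1 for TNF-α in control and 3 to 4 in depleted cells and 2 to 3 for the interaction. The medians at 0 h and 16 h then lay at −1.36 to −1.16 and −1.92 to −1.82 for HOXA, 0.57 to 0.61 and 0.61 to 0.66 for HOXB, 0.20 to 0.29 and −0.11 to 0.01 for HOXC, and 0.50 to 0.96 and 0.35 to 0.50 for HOXD. The replicate letters did not pair the samples (correlations of −0.02 to 0.07), and the replicate block left 10, 16, 0, 4 and 4 calls. Of the single-gene values under all alternatives, 563 kept their direction and call, 45 lost the call and none reversed. The cause of these shifts was not tested, and removing the neighbouring median cannot separate depletion from a difference between the lines.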
